A study of Homo sapiens with 4 samples.

Results

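The genes described here encode 10 factors that cut and polyadenylate the pre-mRNA at its 3′ end, namely PCF11, CPSF1, CPSF2, CPSF3, CPSF6, NUDT21, CSTF2, CSTF3, WDR33 and SYMPK. They were taken by gene symbol from a table of 60708 listed genes. No cut-off on a measured value chose them, but earlier results of these data were known when they were chosen. The data are TT-seq, in which RNA made within a short pulse of 4-thiouridine, here 20 min, is purified and sequenced. All samples came from HEK293 cells, which derive from human embryonic kidney, and their own RPB1, the largest subunit of RNA polymerase II, bears a degron through which auxin has it destroyed. In the 52X WT group the cells received a plasmid for RPB1 with a C-terminal domain (CTD) of 52 wild-type heptad repeats, and in the 52X T4A group the plasmid encoded RPB1 in which the threonine at position 4 of every repeat is alanine. Both groups were transfected transiently for 48 h and then kept in auxin for 48 h. The stated steps of RPB1 degradation, transfection and labeling were the same, and the plasmid is the only stated difference. Whether the groups were handled together is not given. There were 2 libraries per group, and the promoter of the plasmids and the residual endogenous RPB1 are not given.

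Most human mRNAs end where a large protein complex reads the AATAAA signal and a GT-rich element in the nascent RNA, cuts between them, and hands the end to poly(A) polymerase. CPSF finds the signal and makes the cut, CstF binds downstream, and the CFIm and CFIIm complexes complete the machinery. Part of it travels with RNA polymerase II on the CTD, and PCF11 in particular holds a CTD-interacting domain and acts in transcription termination. The values here measure the share of these genes in the newly made RNA when the CTD lacked threonine at this heptad position. They do not show where the factors bound or where RNA was cut. Counts were scaled to each library, so a change shared by all genes would not be seen.

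Library totals ranged from 33188536 to 45605027 counts, and from 31993 to 33850 genes had at least 1 count. CPM here are counts scaled by library size and by TMM, edgeR's normalization factor. Log2 CPM correlated at 0.996 between the WT libraries and at 0.988 between the T4A libraries, and T4A replicate 1 was the library with the lowest correlations to the others, at 0.985 to 0.988. POLR2A, which encodes RPB1, had 9640 and 8720 CPM in WT and 7492 and 8083 CPM in T4A (log2 fold change −0.24, standard error 0.25, adjusted p = 0.659, edgeR), but its counts cannot tell plasmid from endogenous RNA or T4A from wild type, so they do not check the labels. Of the 7 HEK293 markers, 5 lay between 15.0 and 76.6 CPM, PAX2 was low at 1.81 to 2.78 CPM and NEFM had at most 6 counts in a library. The 8 markers of blood, endothelium, liver and fibroblasts stayed at or below 2.95 CPM, the level of COL1A1 in 1 library.

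None of the 10 factor genes passed the test between T4A and WT, which was edgeR's quasi-likelihood test over all 23321 genes tested at an adjusted p below 0.05. Over all genes tested, 1 passed, or 0.00429%. That gene was CHST8, a carbohydrate sulfotransferase outside this machinery and named after its values were seen because it was the single call, at 58.4 and 61.1 CPM in WT and 128 and 120 CPM in T4A (adjusted p = 0.0311, edgeR). At an unadjusted p below 0.05, 2 of the 10 factor genes differed, or 1 higher in T4A (PCF11) and 1 lower (CPSF3), where 15.5% of all tested genes differed in either direction, 7.45% higher and 8.02% lower. The median log2 fold change of the 10 genes was −0.08, with 3 above 0 and 7 below, beside −0.00076 over all tested genes. Nothing in the labels says that libraries of a group came from separate cultures, so p-values measure only the spread between these libraries, and with 2 against 2 an exact permutation test of a single gene could not go below p = 0.333. Because the RNA is bulk, fewer cells making a transcript and less of it per cell cannot be told apart.

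The interval of each difference shows how large a change these libraries leave room for. For 8 of the 10 genes the 95% interval of the T4A over WT fold change lay within 1.5-fold in either direction, beside 41.3% of all tested genes. The exceptions were CPSF1 and SYMPK. The share over all tested genes was not matched for counts, and only 15329 of those 23321 genes are protein-coding. Both T4A libraries were above both WT libraries for PCF11 alone, where 24.8% of all tested genes showed this, and both were below for 4 genes (CPSF2, CPSF3, CSTF2 and SYMPK), where 24.7% of all tested genes did. For PCF11, CPSF2 and CPSF3 the log2 fold change was larger than the difference between replicates in either group. The share of all tested genes for which this held was not counted, so it does not set these genes apart.

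**Figure D1:**
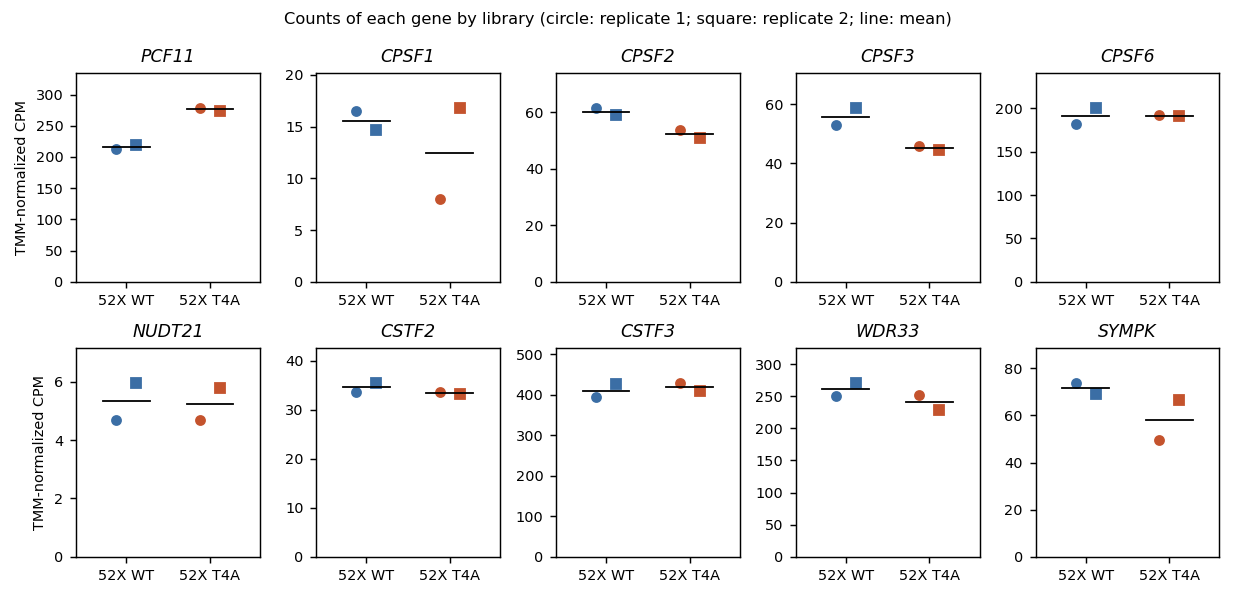
Each panel plots 1 gene, with TMM-scaled CPM (as defined above) on the y axis from 0 and the groups on the x axis; circles are replicate 1, squares replicate 2, and lines the group means. PCF11 lies at 212 and 220 CPM in WT and at 278 and 274 CPM in T4A, while CPSF1 and SYMPK have 1 T4A library well below the rest.

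PCF11 (ENSG00000165494, chr11:83156988-83187451, plus strand, GRCh38) encodes the CFIIm subunit that binds the CTD and helps to release the polymerase after the cut. It had 8316 and 9697 counts in WT replicates 1 and 2, and 9348 and 9469 counts in T4A replicates 1 and 2. Scaled by TMM these were 212 and 220 CPM in WT (216 ± 5.32, SD, n = 2) and 278 and 274 CPM in T4A (276 ± 3.26, SD, n = 2). Both T4A libraries were higher than both WT libraries, and the groups did not overlap. The T4A over WT fold was 1.28 (95% interval 1.11 to 1.48), or 0.35 on the log2 scale with a standard error of 0.09. Its unadjusted p was 0.0043 and its adjusted p 0.209 in edgeR. Against the WT mean, T4A replicate 1 was at 0.36 and T4A replicate 2 at 0.34 on the log2 scale, so the library that stands apart gave the same size as the other. PCF11 has a low GC content, at 38.2% of its span.

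Whether PCF11 passed the threshold depended on the test and on the libraries used. It passed in DESeq2's Wald test (0.36, adjusted p = 0.00068), where 1 of the 9 factor genes with an adjusted p and 7.87% of all genes with one were called. It passed with the trend of each library on GC content removed (0.35, adjusted p = 0.0022) and without T4A replicate 2 (0.35, adjusted p = 0.0236). It did not pass without T4A replicate 1 (adjusted p = 0.192), WT replicate 1 (0.638) or WT replicate 2 (0.585). Over the 10 alternatives that kept all libraries its log2 fold change lay between 0.33 and 0.40 and its adjusted p between 0.00068 and 0.709.

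The bases just upstream of PCF11 are shown because it is the gene of the list with the highest T4A over WT value. The stretch is the part of the RefSeq promoter window (GRCh38.p14, 250 bases before and 50 after the start) that overlaps no listed gene, at chr11:83156881-83156987 on the plus strand, and capitals mark CCAAT in either orientation.
PCF11: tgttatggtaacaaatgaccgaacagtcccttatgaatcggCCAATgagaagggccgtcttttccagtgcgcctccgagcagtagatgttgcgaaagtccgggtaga
The stretch, of 107 bases, holds 1 CCAAT, no GGGCGG and no CGGAAG, and its GC content is 50.5%. The whole window of PCF11 does hold GGGCGG and CGGAAG.

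Among the subunits of CPSF, CPSF3 and CPSF2 were lower in both T4A libraries, and WDR33 overlapped between groups. CPSF3 (chr2:9423651-9473101, plus strand) is the endonuclease that makes the cut. It had 2067 and 2587 counts in WT and 1544 and 1536 counts in T4A, which scaled to 52.8 and 58.7 CPM in WT (55.8 ± 4.16, SD, n = 2) and 46.0 and 44.4 CPM in T4A (45.2 ± 1.11, SD, n = 2). Both T4A libraries lay below both WT libraries, and the T4A values were the closer pair. The T4A over WT fold was 0.811 (95% interval 0.693 to 0.948), a log2 fold change of −0.30 with a standard error of 0.10. The unadjusted p was 0.0145 and the adjusted p 0.249 in edgeR. With the GC trend removed CPSF3 passed (−0.32, adjusted p = 0.0234), and 2 of the 10 genes, PCF11 and CPSF3, were then called beside 10.4% of all genes tested in that way. Over the 10 alternatives that kept all libraries the adjusted p of CPSF3 ran from 0.0234 to 0.626 and its value from −0.33 to −0.25.

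CPSF2 (chr14:92121969-92172145, plus strand) is the homolog of CPSF3 that pairs with it in the cleavage module and lacks its catalytic activity. It had 2409 and 2600 counts in WT and 1801 and 1755 in T4A, or 61.5 and 59.0 CPM in WT (60.3 ± 1.81, SD, n = 2) and 53.7 and 50.8 CPM in T4A (52.2 ± 2.05, SD, n = 2). The groups did not overlap, and the difference was smaller than that of CPSF3. The log2 fold change was −0.21 (standard error 0.09, 95% interval −0.42 to 0.00, adjusted p = 0.329, edgeR). It passed the threshold in none of the alternatives, where its adjusted p was lowest, at 0.0855, with the GC trend removed.

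The upstream stretches of CPSF3 and CPSF2 are shown to set the subunits of the cleavage module beside PCF11. They were chosen and marked in the same way, at chr2:9423529-9423650 and chr14:92121918-92121968, both on the plus strand, with capitals for any CCAAT or for either of the motifs GGGCGG or else CGGAAG, in both orientations.
CPSF3: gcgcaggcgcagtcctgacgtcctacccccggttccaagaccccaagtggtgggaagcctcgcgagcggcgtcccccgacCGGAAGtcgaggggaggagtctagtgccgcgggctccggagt
CPSF2: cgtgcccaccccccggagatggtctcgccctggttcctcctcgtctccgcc
The CPSF3 stretch, of 122 bases, has a GC content of 70.5% and holds 1 CGGAAG. The CPSF2 stretch, of only 51 bases, has 72.5% and holds none of the 3 motifs, but its whole 300-base window holds CCAAT and CGGAAG. The PCF11 stretch has 107 bases and 50.5%. The stretches cover different lengths of their windows, so these GC contents do not compare the promoters.

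WDR33 (chr2:127701027-127811187, minus strand) is the CPSF subunit that, with CPSF4, reads the AATAAA signal. Its counts were 9819 and 11925 in WT and 8458 and 7897 in T4A, or 251 and 271 CPM against 252 and 228 CPM. The groups overlapped, since T4A replicate 1 was slightly above WT replicate 1. The log2 fold change was −0.12 (standard error 0.10, 95% interval −0.35 to 0.11, adjusted p = 0.588, edgeR).

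SYMPK (symplekin, chr19:45815410-45863194, minus strand) is the scaffold that joins CPSF, CstF and the phosphatase SSU72. It had 2887 and 3051 counts in WT and 1661 and 2302 in T4A, or 73.8 and 69.2 CPM in WT (71.5 ± 3.21, SD, n = 2) and 49.5 and 66.6 CPM in T4A (58.0 ± 12.1, SD, n = 2). Both T4A libraries were below both WT libraries, but T4A replicate 2 lay close to WT and T4A replicate 1 far below. Against the WT mean they were at −0.53 (T4A replicate 1) and −0.10 (T4A replicate 2) on the log2 scale. The log2 fold change was −0.30 (standard error 0.14, 95% interval −0.61 to 0.01, adjusted p = 0.337, edgeR). Without T4A replicate 2 the log2 fold change of SYMPK was −0.55, and without T4A replicate 1 it was −0.09. Each of these fits has 1 T4A library, so the spread within T4A is not measured in it. With all libraries the adjusted p of SYMPK lay between 0.0690 and 0.611 over the alternatives.

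The upstream stretch of SYMPK is shown because this gene and CPSF1 were the ones whose T4A libraries disagreed most. It lies at chr19:45863195-45863397 on the minus strand and is marked as above.
SYMPK: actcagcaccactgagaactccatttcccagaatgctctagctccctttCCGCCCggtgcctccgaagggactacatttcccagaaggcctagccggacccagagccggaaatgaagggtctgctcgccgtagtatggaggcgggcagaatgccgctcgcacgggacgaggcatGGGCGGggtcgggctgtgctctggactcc
It holds 2 copies of GGGCGG, 1 in each orientation, and no CCAAT or CGGAAG, though the whole window of SYMPK holds CGGAAG.

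Neither CPSF6 nor NUDT21, subunits of CFIm, the complex that binds upstream of the signal and takes part in the choice between poly(A) sites, differed beyond its replicates. CPSF6 (chr12:69239569-69274358, plus strand), the partner of NUDT21, had 7134 and 8832 counts in WT and 6457 and 6606 in T4A, or 182 and 200 CPM in WT and 192 and 191 CPM in T4A. Both T4A libraries lay between the WT libraries. The log2 fold change was 0.00 (standard error 0.09, 95% interval −0.21 to 0.21, adjusted p = 0.990, edgeR), and it was −0.08 without WT replicate 1 and −0.01 without T4A replicate 2. It was also below 0 under 3 other settings, scaling to mitochondrially encoded genes, no filter on low counts and the length trend removed.

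NUDT21 (chr16:56429133-56452199, minus strand), the subunit that binds TGTA in the RNA, had 184 and 263 counts in WT and 158 and 200 counts in T4A, the fewest of the 10 genes. These were 4.70 and 5.97 CPM in WT and 4.71 and 5.78 CPM in T4A, so replicate 1 was the lower library and replicate 2 the higher in both groups. The log2 fold change was −0.02 (standard error 0.22, 95% interval −0.52 to 0.47, adjusted p = 0.963, edgeR). It turned above 0 without WT replicate 2 (0.14), without T4A replicate 1 (0.12), when scaled to library size alone (0.03) and when only protein-coding genes were tested (0.01). Of its span, 93.8% is shared with a listed gene of the same strand, ENSG00000288725, and only 1423 bases are not. That gene itself had 20 and 23 counts in WT and 33 and 26 in T4A. All 9293 listed genes whose span is wholly covered by genes of their own strand were listed at 0, so reads in shared stretches were not counted and the NUDT21 counts cover a small piece of the gene.

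The CstF subunits also overlapped or nearly so. CSTF3 (chr11:33077188-33162371, minus strand), which bridges CstF to CPSF, had the most counts of the 10 genes, at 15438 and 18767 in WT and 14406 and 14167 in T4A, or 394 and 426 CPM in WT and 429 and 410 CPM in T4A. The groups overlapped, and the log2 fold change was 0.03 (standard error 0.11, 95% interval −0.21 to 0.27, adjusted p = 0.899, edgeR). Without WT replicate 1 it was −0.03. CSTF2 (chrX:100820359-100841520, plus strand), which binds the GT-rich element, had 1317 and 1562 counts in WT and 1128 and 1150 in T4A, or 33.65 and 35.4 CPM in WT and 33.60 and 33.3 CPM in T4A. The T4A libraries were both below the WT libraries, but the gap was smaller than the spread within WT. Its log2 fold change was −0.05 (standard error 0.10, 95% interval −0.28 to 0.19, adjusted p = 0.842, edgeR), and 0.0040 when scaled to library size alone.

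CPSF1, the large CPSF subunit on which WDR33 and CPSF4 assemble, had the widest interval of the 10 genes and is the richest in GC, at 60.1% of its span (chromosome 8, 144393229 to 144409335, minus strand). It had 646 counts in each WT library, and 269 and 581 counts in T4A. These were 16.5 and 14.7 CPM in WT (15.6 ± 1.31, SD, n = 2) and 8.01 and 16.8 CPM in T4A (12.4 ± 6.22, SD, n = 2). T4A replicate 1 was lower than every other library by a wide margin, and T4A replicate 2 was the highest of the 4. The log2 fold change was −0.33 (standard error 0.29, 95% interval −0.99 to 0.34, adjusted p = 0.604, edgeR). It was −0.97 without T4A replicate 2 and 0.12 without T4A replicate 1, so its direction rested on 1 library. Without T4A replicate 2, 3 of the 10 genes were called, PCF11, CPSF1 and SYMPK, beside 13.8% of all genes tested in that fit.

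GC content moved with the libraries. Over 23162 tested genes with a GC value, the log2 ratio of a library to the WT mean correlated with the GC content of the gene span at −0.46 in T4A replicate 1 and at 0.12 in T4A replicate 2. For the WT libraries it was 0.26 (replicate 1) and −0.26 (replicate 2), which mirror each other because their mean is the reference. These are descriptions over genes that share a library. The most GC-rich of the 10 genes, CPSF1 (60.1%) and SYMPK (51.5%), were also those with the lowest ratios in T4A replicate 1, at −0.92 and −0.53. In T4A replicate 2 they were at 0.11 and −0.10. With the GC trend removed the log2 fold change of CPSF1 was −0.07 and that of SYMPK −0.29. PCF11 and CPSF3 kept their values, at 0.35 and −0.32. The part of GC content in the values of CPSF1 and SYMPK was not tested.

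**Figure D2:**
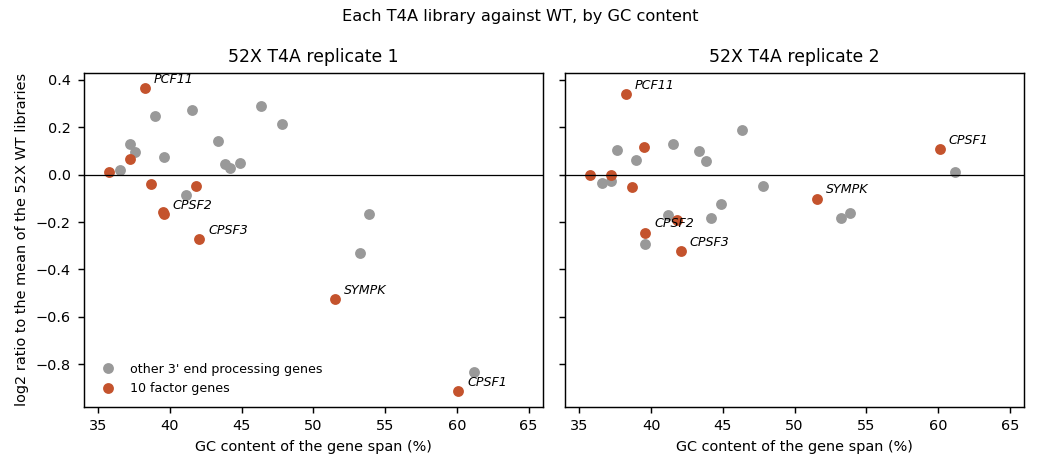
Each point is a gene, with the GC content of its span in percent on the x axis and the log2 ratio of its CPM to the mean of the WT libraries on the y axis, for T4A replicate 1 (left) and T4A replicate 2 (right); red points are the 10 factor genes and grey points the other 3′ end processing genes tested. CPSF1 and SYMPK lie at −0.92 and −0.53 on the left and at 0.11 and −0.10 on the right, while PCF11 is at 0.36 and 0.34.

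Nor did any other tested gene of the 3′ end machinery pass in edgeR. The list held 18 further genes, among them the remaining CPSF, CFIm and CstF subunits, CLP1 of CFIIm, the poly(A) polymerases, subunits of phosphatases and XRN2, the exonuclease that degrades the RNA left after the cut, and 16 of them were tested. At an unadjusted p below 0.05 there were 2 (15.5% of all tested genes), or 1 higher and 1 lower, and both T4A libraries lay above both WT libraries for 5 (24.8%) and below for 3 (24.7%). The median log2 fold change was 0.02, with 8 genes above 0 and 8 below, and the interval lay within 1.5-fold for 15 of the 16 (41.3%). The 2 genes not tested, FIP1L1 and PABPN1, share 99.8% and 100% of their span with a gene of the same strand, and had at most 14 and 0 counts in a library.

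PPP1R10, which targets the phosphatase PP1 in the machinery, was the higher gene, at 254 and 247 CPM in WT and 306 and 285 CPM in T4A (log2 fold change 0.24, standard error 0.10, unadjusted p = 0.0352, adjusted p = 0.299, edgeR). DESeq2 called it (adjusted p = 0.0401), as did the test with the GC trend removed (0.20, adjusted p = 0.0153). CPSF4, the partner of WDR33 in reading the signal, was the lower gene, at 72.0 and 65.5 CPM in WT and 54.5 and 60.4 CPM in T4A. Its log2 fold change was −0.26 (standard error 0.10, unadjusted p = 0.0306, adjusted p = 0.287, edgeR). It was −0.35 without T4A replicate 2 and −0.18 without T4A replicate 1. The paralogs of listed genes did not pass. CPSF7, the alternative partner of NUDT21, was at −0.07 on the log2 scale (adjusted p = 0.746, edgeR), and CSTF2T, a paralog of CSTF2 without introns, was at 0.12 (adjusted p = 0.554, edgeR). PPP1CA, a PP1 catalytic subunit with a GC content of 61.2%, had the widest interval of this list (log2 fold change −0.37, adjusted p = 0.504, edgeR), with T4A replicate 1 at −0.83 and T4A replicate 2 at 0.01 against the WT mean. It was −0.88 without T4A replicate 2, 0.01 without T4A replicate 1 and −0.03 with the GC trend removed.

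**Figure D3:**
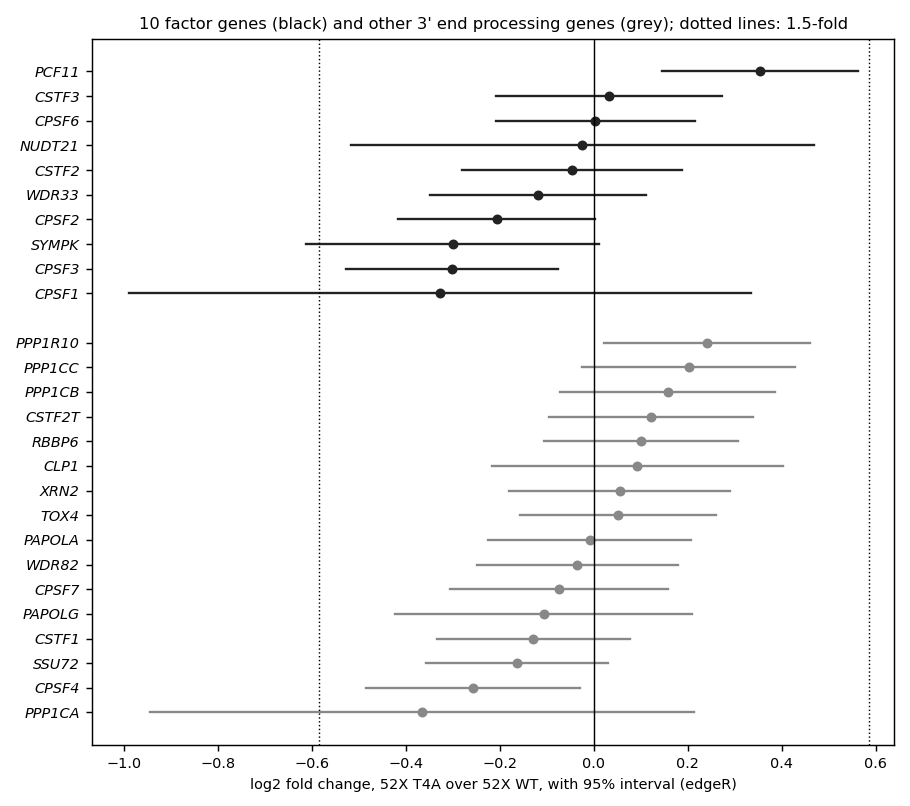
Points are log2 fold changes of T4A over WT from edgeR and bars their 95% intervals, for the 10 factor genes (black) and the 16 other 3′ end processing genes tested (grey); dotted lines mark 1.5-fold in either direction. The intervals of PCF11 (0.14 to 0.56) and PPP1R10 lie above 0, those of CPSF3 (−0.53 to −0.08) and CPSF4 lie below 0, and the bars of CPSF1, SYMPK and PPP1CA cross a dotted line.

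RNA from the 10 genes was present at unequal levels. Levels per length, as RPKM on the listed span with TMM scaling (mean ± SD of the 4 libraries), ran from 8.08 ± 1.14 for PCF11 down to 0.229 ± 0.0295 for NUDT21, a ratio of 35.2. On the length that no gene of the same strand shares, where reads could be counted, the ratio of the highest to the lowest, PCF11 to CPSF1, was 10.7. PCF11 was above 97.1% of the 15329 protein-coding genes tested, whose median was 0.630 RPKM. It was followed by CPSF6 at 5.50 ± 0.213 and CSTF3 at 4.87 ± 0.188, above 94.9% and 93.8% of protein-coding genes. WDR33 stood at 2.27 ± 0.157, CSTF2 at 1.61 ± 0.0464 and SYMPK at 1.36 ± 0.222. The remaining CPSF genes lay lower, with CPSF2 at 1.12 ± 0.0979, CPSF3 at 1.02 ± 0.133 and CPSF1 at 0.869 ± 0.254. Of the 9 pairs of neighbours in this order, 3 overlapped in their ranges over the 4 libraries, which pool WT and T4A. These were SYMPK and CPSF2, CPSF2 and CPSF3, and CPSF3 and CPSF1, so the genes within these pairs are not separated on this range.

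The place of NUDT21 depended on the length used. Counted per base that no gene of the same strand covers, its level was 3.72 ± 0.478 RPKM, the place after CSTF3, and 7 of the 10 genes changed place. For NUDT21 these are the 1423 bases at its 3′ end. For the other genes they are most or all of the span, so this place sets unlike regions side by side. PCF11, of whose span 14.4% is shared, was at 9.44 ± 1.33 RPKM on this scale and stayed first. The order was the same without TMM scaling.

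**Figure D4:**
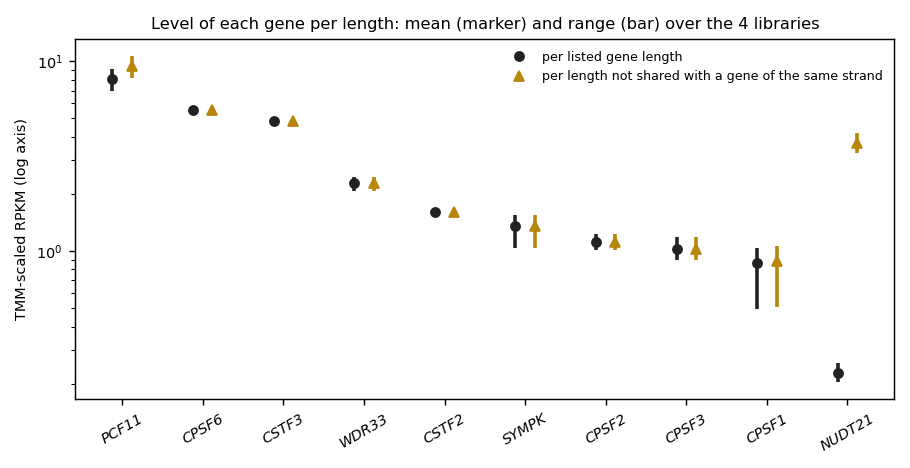
TMM-scaled RPKM of each gene on a log axis, as the mean (marker) and the range (bar) over the 4 libraries; black circles use the listed gene length and gold triangles the length that no gene of the same strand shares. PCF11 is highest on both scales, at 8.08 and 9.44, and NUDT21 moves from 0.229 to 3.72.

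The 3′ ends of these genes are themselves substrates of the machinery they encode, so the last 30 bases of the canonical transcripts (GENCODE v44 models) are shown for 5 of the genes, with the AATAAA signal in capitals.
PCF11: atacatgtAATAAAtagaatgatgaagaaa
CPSF2: caattgtgaAATAAAcagattctgaaggtc
CPSF3: aaAATAAAatgcattcgtttctctggggga
CSTF3: tcctttaaaaAATAAAaggattcagaaaca
SYMPK: gaaaagaaaaaaaaaaagggatggcgggcc
The signal begins 22 bases from the end in PCF11, 21 in CPSF2, 28 in CPSF3 and 20 in CSTF3, and the SYMPK end holds none. AATAAA lies in the last 30 bases of 8 of the 10 genes (80%), where 56.6% of 19869 protein-coding genes hold it. Such a match is a description of letters, and no match says only that they are not in this window.

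Promoter letters were counted in the whole 300-base RefSeq windows of 9 of the genes, since CPSF1 was not matched there. CGGAAG, searched on both strands, lay in 8 of the 9 (all but WDR33), beside 19.5% of all 35116 promoters and 23.7% of the 22199 of protein-coding genes. GGGCGG lay in 6, beside 45.0% of all promoters and 56.3% of coding ones. CCAAT lay in 5, beside 34.6% and 34.7%, and TATAAA in none, beside 11.5% and 9.47%. PCF11 and CPSF3 both hold CGGAAG in the window. A link between these letters and the T4A over WT values was not tested.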

How the data were processed

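The deposited file is a table of raw counts per gene for the 4 libraries, which the authors made from uniquely aligned reads with featureCounts, as its name and columns say. The version and settings are not given in the sources used here. The submitters' processing notes name FastQC, cutadapt 4.6, STAR 2.7.11b, Picard, deepTools 3.5.6 and GRCh38, with no role stated. Listed lengths equal gene spans for all 60708 genes, so reads in introns were counted. A GRCh38 gene table matched 19052 protein-coding symbols, and 99.974% of these overlapped the position listed there. The libraries were strand-specific per the labels.

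Counts were tested in edgeR 4.0.16 (R 4.3.3) with TMM, filterByExpr, the quasi-likelihood test and Benjamini-Hochberg adjustment over all 23321 tested genes. Standard errors and intervals came from the F statistic. Scripts were tested on simulated data. GC content, names (58702 by stable identifier) and transcript ends came from GENCODE v44 mapped to GRCh37, and promoters from RefSeq. Alternatives were DESeq2 1.42.0, other normalizations, filters and gene sets, a replicate block, leaving out each library and a further fold threshold of 1.5, and, chosen after seeing the data, removal of each library's trend on GC content or gene length (lowess). The members and lists were chosen with earlier results of these data known. All 10 genes are named, with genes of the other lists at an unadjusted p below 0.05, the subunit CPSF4, the paralogs CPSF7 and CSTF2T, and POLR2A. The values of PPP1CA, SLBP, LSM10, LSM11, ZNF473, FIP1L1 and PABPN1 were added outside this rule, after they were seen. Library totals and counts per gene set the counting precision, and NUDT21 had the fewest counts of the 10 genes. The marker PECAM1 was not matched in the table.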

Additional observations from a re-analysis of the deposited data

How the results depend on the processing

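The count of genes past the threshold was 1 over all tested genes and varied widely. It was 195 when scaled to mitochondrially encoded genes, 150 with no filter on low counts, 533 with a replicate block, 2408 with the GC trend removed, 2 with the length trend removed, 910 in DESeq2, and from 0 to 3466 when 1 library was left out. Of the 10 factor genes, 2 passed with the GC trend removed, 1 in DESeq2 and from 0 to 3 with 1 library left out. At an unadjusted p below 0.05 there were 2 of them (15.5% of all tested genes), against 0 with mitochondrial scaling (10.7% of all genes tested there), 4 with no filter (12.0%), 4 with the block (14.1%), 5 with the GC trend removed (26.8%), and from 1 to 4 with 1 library left out (7.64% to 26.3%). Of the 16 other 3′ end genes tested, 2 passed with the GC trend removed (10.4% of all genes) and 1 in DESeq2 (7.87%). Their unadjusted count of 2 became 4 with library size alone (16.8% of all genes) and 1 with mitochondrial scaling (10.7%). It was 1 with the block (14.1%) and 5 with the GC trend removed (26.8%).

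The median log2 fold change of the 10 genes ran from −0.19 to −0.021 with 1 library left out, and that of the other genes from −0.031 to 0.039, and it was 0.072 with library size alone and −0.033 with no filter. PCF11 passed at 0.35 with the GC trend removed and at 0.36 in DESeq2, and ran from 0.32 to 0.36 with 1 library left out. CPSF3 passed at −0.32 with the GC trend removed. With 1 library left out CPSF1 ran from −0.97 to 0.12, SYMPK from −0.55 to −0.095, CPSF6 from −0.075 to 0.054, NUDT21 from −0.20 to 0.14 and CSTF3 from −0.033 to 0.069. CPSF6, at 0.0029, turned to −0.0100 with mitochondrial scaling, −0.021 with no filter and −0.022 with the length trend removed. NUDT21 turned to 0.032 with library size alone and 0.0090 with protein-coding genes only, and CSTF2 to 0.0040 with library size alone. The order by level changed 7 places with unshared length. DESeq2 gave NUDT21 no adjusted p. Of the other 139 values of the 10 genes under these alternatives, 121 kept their direction and side of the threshold, 12 turned and 6 passed it. The causes were not tested.

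Across genes, the differences between replicates in WT and in T4A were nearly uncorrelated (−0.07). The trends on GC content differed between replicates in opposite directions in WT and T4A. The correlation therefore cannot decide whether libraries that share a replicate number were handled as pairs, which was not tested. The block changed the call of none of the 10 genes, and its 533 calls over all genes were 205 higher and 328 lower. Leaving out a T4A library assumes that the lone library varies as the WT libraries do. NUDT21 had the fewest counts, and CPSF1 had the largest standard error and the largest difference between its T4A libraries.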

Other observations

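Replication-dependent histone mRNAs are cut without a poly(A) tail by a related complex that also uses CPSF3, CPSF2 and SYMPK, and 5 genes for its own parts were tested. None passed in edgeR. At an unadjusted p below 0.05 there was 1 (15.5% of all tested genes), CASP8AP2, which takes part in histone mRNA production, at 71.9 and 76.5 CPM in WT and 64.0 and 62.6 CPM in T4A (log2 fold change −0.23, standard error 0.09, unadjusted p = 0.0304, adjusted p = 0.287, edgeR). It passed with the GC trend removed (−0.25, adjusted p = 0.0341). SLBP, which binds the histone stem-loop, was at 159 and 158 CPM in WT and 188 and 171 CPM in T4A (0.18, adjusted p = 0.375, edgeR). LSM11 was at 0.11 and ZNF473 at −0.10. LSM10, with 348 and 423 counts in WT and 179 and 280 in T4A, had the widest interval (−0.46, 95% interval −0.96 to 0.04). Its value was −0.81 without T4A replicate 2, a fit with 1 T4A library. Both T4A libraries lay above both WT libraries for 2 of the 5 (24.8% of all tested genes) and below for 3 (24.7%), and the median log2 fold change was −0.10.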
